A study of Mus musculus with 14 samples.

Results

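The genes described were 10 transcription factor genes of the Sox family, chosen by their group: Sox1, Sox2, Sox14 and Sox21 of group B, Sox8, Sox9 and Sox10 of group E, and Sox7, Sox17 and Sox18 of group F. They are 10 of 21938 protein-coding genes on the 21 assembled chromosomes. For each gene the H3K27me3 sites were counted within 1 kb of any of its transcription start sites (TSSs), over its body and within 50 kb on either side of it. H3K27me3, trimethylation of lysine 27 of histone H3, was mapped by ChIP-seq in immortalised mouse embryo fibroblasts (iMEF). The endogenous floxed Ash2l gene of these cells had been removed with an inducible Cre recombinase, in control and treated cells alike, and replaced by a lentiviral human ASH2L with an FKBP12F36V tag, and the study's work on the mark was done in the clone NG3, so that the cells stand for 1 clone. dTAG is a PROTAC, a small molecule that leads to degradation of the tagged protein. The 12 H3K27me3 libraries formed 6 groups of 2 replicates, namely untreated cells and cells exposed to dTAG for 30 min, 2 h, 4 h, 8 h or 16 h, beside 2 input libraries from untreated cells and cells treated for 16 h.

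The file used here was a deposited list of 153983 sites combined over all samples, of which 153878 lay on the assembled chromosomes. The list gives positions without any value per library. A site therefore says that the mark was called at that place in the combined data. Treated and untreated cells were not compared here, no replicate spread or test is given for any value below, and the depth behind a site is unknown. Expression was not measured in these libraries.

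Sox proteins bind DNA through an HMG box and direct the fate of many embryonic lineages. In group B, Sox1 and Sox2 act mainly as activators that maintain neural progenitors, and Sox14 and Sox21 act mainly as repressors during neuronal differentiation. The group E factors Sox8, Sox9 and Sox10 work in the neural crest and its glial and melanocyte descendants, and Sox9 also in cartilage and the testis. The group F factors Sox7, Sox17 and Sox18 work in the endothelium, and Sox17 also in the definitive endoderm. Polycomb repressive complex 2 sets H3K27me3, often over CpG-rich promoters of developmental regulators that a cell does not use.

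Of the 10 genes, 5 had a promoter in the RefSeq table used here (GRCm38.p6), which spans 250 bases before and 50 bases after the RefSeq start. They are Sox1, Sox2, Sox14, Sox21 and Sox8, and Sox9, Sox10, Sox7, Sox17 and Sox18 had none there. Of the 5, 3 are printed below, with every CpG in capitals, because the CpG density at the start is a feature that most of the genes share. They are Sox1, with the most CpG dinucleotides, Sox2, and Sox8, with the fewest.
Sox1, chr8:12395269-12395568, plus strand: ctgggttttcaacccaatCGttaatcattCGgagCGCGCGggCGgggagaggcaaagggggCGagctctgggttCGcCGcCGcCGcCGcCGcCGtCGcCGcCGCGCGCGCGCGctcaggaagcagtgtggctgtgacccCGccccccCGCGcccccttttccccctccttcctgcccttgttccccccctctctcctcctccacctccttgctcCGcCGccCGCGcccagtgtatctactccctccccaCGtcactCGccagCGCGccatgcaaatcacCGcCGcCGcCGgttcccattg
Sox2, chr3:34649745-34650044, plus strand: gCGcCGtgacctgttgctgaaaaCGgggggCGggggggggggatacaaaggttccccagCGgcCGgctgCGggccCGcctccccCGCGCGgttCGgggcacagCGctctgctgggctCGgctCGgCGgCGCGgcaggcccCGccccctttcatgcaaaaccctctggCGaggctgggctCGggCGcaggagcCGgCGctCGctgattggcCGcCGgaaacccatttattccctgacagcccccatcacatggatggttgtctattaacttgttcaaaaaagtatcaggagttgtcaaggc
Sox8, chr17:25570637-25570936, minus strand: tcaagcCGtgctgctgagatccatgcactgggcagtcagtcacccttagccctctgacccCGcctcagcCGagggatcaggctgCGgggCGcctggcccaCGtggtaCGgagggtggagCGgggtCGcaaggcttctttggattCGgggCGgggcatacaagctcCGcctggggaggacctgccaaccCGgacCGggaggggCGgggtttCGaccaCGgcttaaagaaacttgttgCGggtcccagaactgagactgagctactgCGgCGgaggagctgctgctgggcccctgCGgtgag
The Sox1 promoter held 37 CpG, and 5.58% of the 32851 promoters in the table held at least as many. The count was 27 for Sox2, a number reached by 15.5% of the promoters, and 21 for Sox8, reached by 24.8%. Sox14 and Sox21, which are not printed, held 26 and 22. All 5 stretches of 300 bases lay wholly inside 1 H3K27me3 site each.

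At the TSSs, 9 of the 10 genes had a site within 1 kb, and Sox9 was the exception. In each of the 9 this site was at least 2 kb wide. Among all protein-coding genes, 31.5% had any site in this window and 16.1% had one of at least 2 kb. The 9 genes were all 4 of group B, 2 of 3 in group E and all 3 of group F. In 8 of them every base of the window was covered, and in Sox17, whose 8 start sites are spread over the gene, 95.3% of the bases were covered. The median protein-coding gene had 0% of this window covered.

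**Figure D1:**
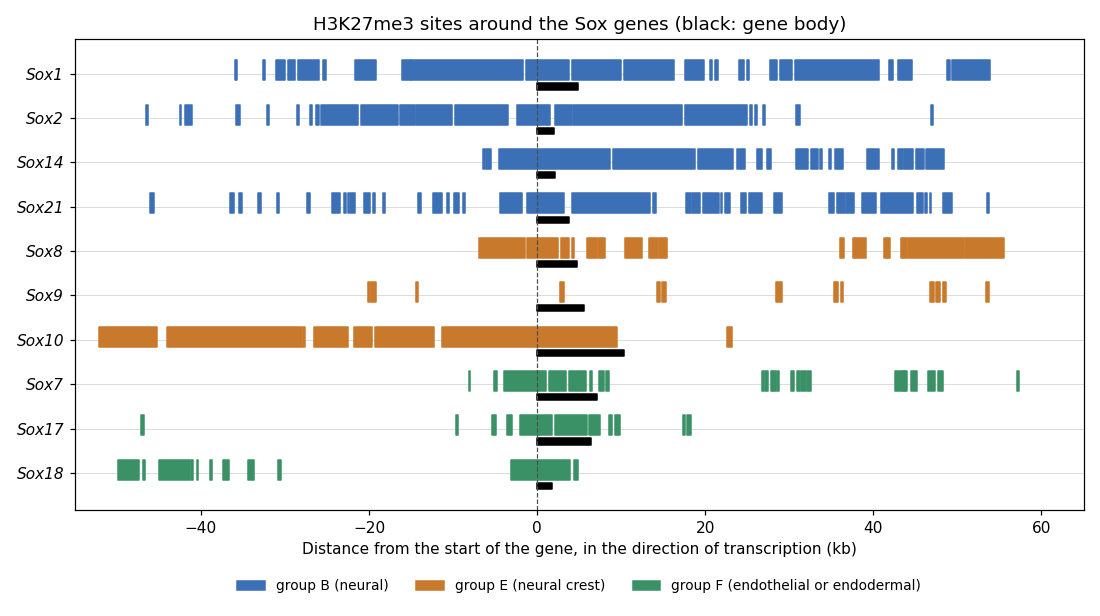
H3K27me3 sites (coloured bars) around the 10 genes, by distance in kb from the start of each gene in the direction of transcription, with the gene body in black. A site covers the start of each gene except Sox9, and the sites of group F are narrow in extent beside those of Sox1, Sox2 and Sox10.

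The sites over the gene starts ranged from 3625 bp for Sox8 to 20781 bp for Sox10. In group B the site at Sox1 ran from 1344 bp before to 3778 bp after the start and that at Sox2 from 2456 bp before to 1536 bp after it. The sites at Sox14 and Sox21 measured 13260 and 4449 bp. Thus the width at the start varied within a group, and the widest site at a start in groups B and E, at Sox14 and Sox10, took in most or all of the gene. In group F the widths were 5033 bp at Sox7, 3850 bp at Sox17 and 6974 bp at Sox18. The 6974 bp site took in the whole of Sox18, a gene of 1805 bp.

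Gene bodies were covered to a similar extent in groups B and F. In group B the covered share was 91.7% for Sox1, 74.7% for Sox2, 100% for Sox14 and 84.9% for Sox21. In group F it was 76.5% for Sox7, 90.2% for Sox17 and 100% for Sox18. The ranges of these groups overlapped, with medians of 88.3% and 90.2%. Group E was split, with 77.0% of Sox8 and 92.0% of Sox10 covered but 8.43% of Sox9. At least 50% of the body was covered in 9 of the 10 genes and in 9.35% of all protein-coding genes. Most of the genes are short, from 1805 bp for Sox18 to 10333 bp for Sox10, so a site over the start covers much of the body.

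The surroundings separated the groups more than the genes themselves did. Within the gene and 50 kb on either side, the covered share was 39.2 to 59.0% in group B, 5.30 to 50.6% in group E and 11.5 to 16.4% in group F. The lowest neural gene, Sox14, lay 22.8 percentage points above the highest gene of group F, Sox7, and group E overlapped both. The medians were 45.4%, 29.0% and 16.1%, beside 3.81% for all protein-coding genes. Every member lay above that median, Sox9 least so.

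In order, the shares were 59.0% for Sox1, 50.6% for Sox10, 50.5% for Sox2, 40.3% for Sox21, 39.2% for Sox14, 29.0% for Sox8, 16.4% for Sox7, 16.1% for Sox18, 11.5% for Sox17 and 5.30% for Sox9. Neighbours in this order such as Sox10 and Sox2, or Sox7 and Sox18, were nearly equal, and there is no replicate spread against which to set their differences. The share of all protein-coding genes with a lower value was 97.8% for Sox1, 96.3% for Sox10 and 96.3% for Sox2. For the genes of group F it was 76.9% (Sox7), 76.5% (Sox18) and 69.7% (Sox17), and for Sox9 it was 55.4%. Sox1, Sox10 and Sox2 thus stood in the top 5% of genes by this measure, and Sox9 stood near the middle. The coverage of the whole chromosomes followed another order. Sox2 lies on chromosome 3, of which 2.77% was covered, and its surroundings were covered 18.2 times as much. Sox9 lies on chromosome 11, of which 10.4% was covered, and the ratio there was 0.511.

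**Figure D2:**
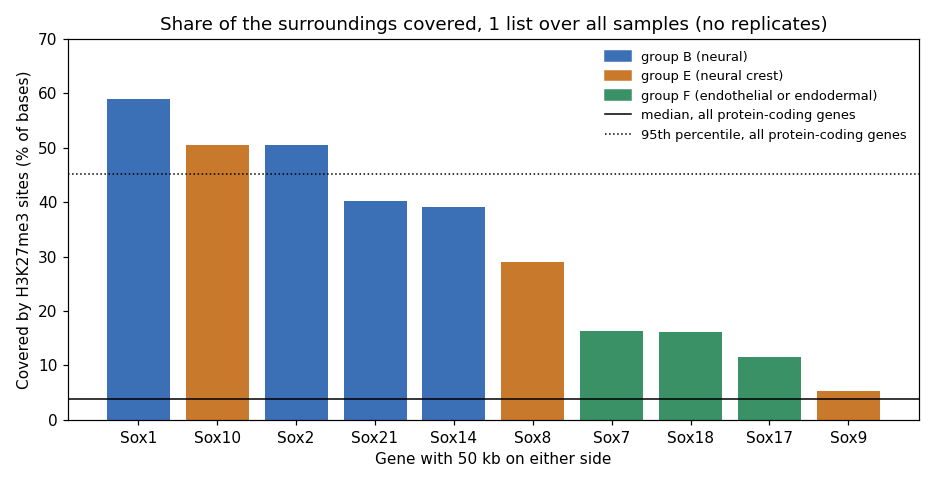
Share of bases covered by H3K27me3 sites (percent, bars) in each gene with 50 kb on either side, in falling order and coloured by group. The solid line is the median of all protein-coding genes (3.81%) and the dotted line their 95th percentile (45.2%), which Sox1, Sox10 and Sox2 pass, and the 3 genes of group F stand together between 11.5 and 16.4%.

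The number of sites did not follow the covered share. Sox21 had 40 sites within its surroundings, Sox1 and Sox7 24 each, Sox2 22, Sox14 19, Sox8 17 and Sox10 only 8. Sites of at least 5 kb numbered 5 around Sox1, 4 around Sox10, 3 around Sox2, 2 around Sox14 and 1 each around Sox21 and Sox7. Those of Sox10 included 20781 bp over its start and 16144 bp further upstream. The same number of 24 sites thus went with 59.0% covered around Sox1 and 16.4% around Sox7. The widest site near Sox1 was 13316 bp and lay upstream of the start, ending 1681 bp before it, and the widest near Sox2, of 12970 bp, lay downstream between 4281 and 17250 bp after the start. Near Sox8 the widest site measured 6724 bp and began 44093 bp after the start. For Sox14, Sox10, Sox7, Sox17 and Sox18 the widest site of the surroundings was the one over the start. The list of all sites had a median width of 455 bp, whereas the 189 sites around the 10 genes had a median of 586 bp.

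When sites less than 1 kb apart were joined, the stretch that held the start was 32.4 kb for Sox1, 31.1 kb for Sox14, 29.5 kb for Sox2 and 18.6 kb for Sox21. It was 20.8 kb for Sox10 and 11.3 kb for Sox8. In group F it was 13.7 kb for Sox7, 11.1 kb for Sox17 and 7.95 kb for Sox18. At this gap every stretch of group B was longer than any of group F. This did not hold with gaps under 500 bp joined, where the stretches of Sox2 and Sox21, of 3.99 and 4.45 kb, were shorter than those of group F, of 6.97 to 10.5 kb. With gaps under 5 kb joined, the stretch of Sox1 grew to 247.7 kb, of which 70.6% was covered by sites, while that of Sox18 stayed at 7.95 kb. Joining at 5 kb put the stretch of Sox2 at 67.0 kb and that of Sox10 at 69.1 kb, with 59.6 kb of the latter before the start.

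Downstream of the gene, groups B and F were set apart over the first 20 kb. In the first 5 kb after the gene end, 91.9 to 100% of the bases were covered in group B and 16.7 to 51.6% in group F. From 5 to 10 kb the range was 92.3 to 100% in group B, and all 3 genes of group F were at 0%. From 10 to 20 kb group B still held 46.5 to 97.0% and group F 0 to 6.82%. The 2 ranges did not overlap in any of these bins. Upstream they lay closer, with 77.5 to 93.3% and 54.9 to 84.3% covered in the first 5 kb. Group F fell to 0 to 14.3% at 5 to 10 kb upstream, where group B held 16.7 to 100%. Farther upstream the groups were not set apart. At 10 to 20 kb Sox14 was at 0%, as were all 3 genes of group F, while Sox2 reached 94.96%. At 20 to 50 kb the ranges were 0 to 26.6% in group B and 0 to 29.7% in group F. At 50 to 100 kb the medians were 17.5% and 18.9%.

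**Figure D3:**
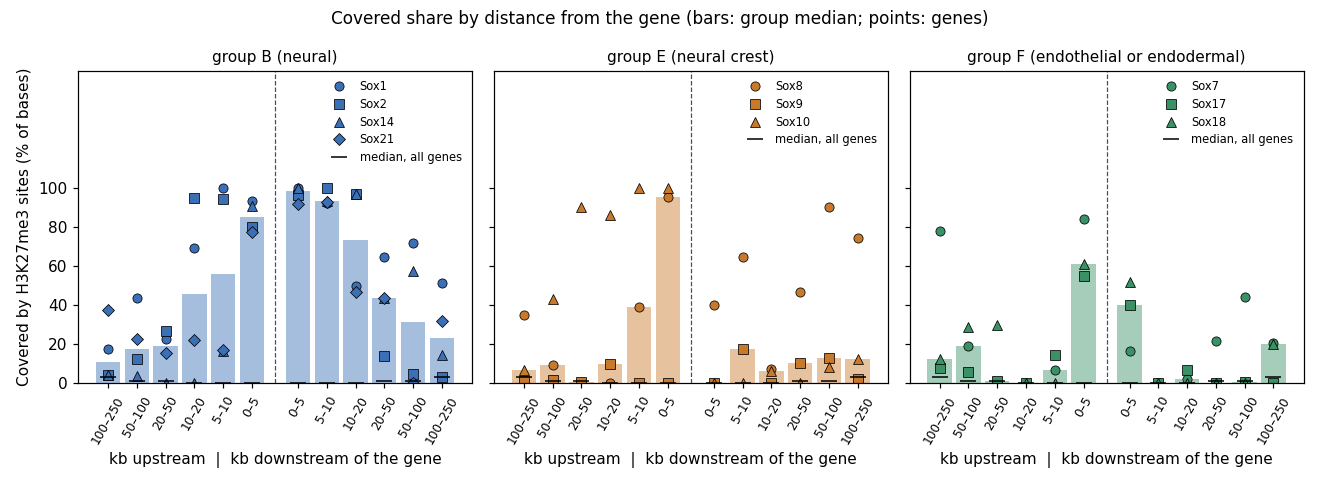
Share of bases covered (percent) in bins of distance in kb upstream and downstream of the gene, 1 panel per group, with bars for the group median, points for the genes and dashes for the median of all protein-coding genes. In group F all 3 genes are at 0% at 5 to 10 kb downstream, where the 4 genes of group B hold at least 92.3%. Some bins farther out are covered in group F too, such as 44.3% for Sox7 at 50 to 100 kb downstream and 29.7% for Sox18 at 20 to 50 kb upstream.

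The stretches were often one-sided. Sox14 was covered over 97.0% of the 10 to 20 kb downstream and over 0% of the 10 to 20 kb upstream. Sox10 showed the opposite, with 90.2% of the 20 to 50 kb upstream covered and 0% of the first 10 kb downstream. Sox2 was covered on both sides, with 94.96% of the 10 to 20 kb upstream and 97.0% of the 10 to 20 kb downstream. These genes thus shared a covered start but not the side to which the mark extended. Farther out, coverage around Sox2 fell to 4.21% upstream and 3.12% downstream at 100 to 250 kb, whereas around Sox1 it was 17.6% and 51.4%. At this distance Sox8 had 74.6% covered downstream and Sox7 77.8% upstream, more than in their own 50 kb surroundings.

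Sox9, a regulator of cartilage and testis as well as of the neural crest, was unlike the other 9. No site lay within 1 kb of its start, and the nearest began 2768 bp after it. This site, at chr11:112784992-112785458, was 467 bp wide and lay wholly within coding sequence of exon 3, the last exon. Its middle 150 bases, chr11:112785151-112785300 on the plus strand, are printed from the GRCm38.p6 genome with CpG in capitals, because this is the only site in the body of the gene.
Sox9 exon 3: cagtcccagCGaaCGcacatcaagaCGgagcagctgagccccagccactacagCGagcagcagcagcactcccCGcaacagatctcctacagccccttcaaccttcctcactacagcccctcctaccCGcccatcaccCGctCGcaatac
The stretch held 8 CpG and had a GC content of 62.0%. The other 12 sites in the surroundings of Sox9 lay outside the gene, 3 of them before the start and the nearest of these 14167 bp away. The widest was 775 bp, so none reached 1 kb, and with only sites of at least 500 bp kept, 0% of the Sox9 body was covered. Its sites covered 5.597 kb in all. The Sox9 surroundings held no unknown bases, and none of the 74 patch sequences of the assembly aligned to them over at least 1 kb. Patches repeat parts of the chromosomes and so give reads a second position. In the same check Sox14 and Sox17 aligned to a patch over 6429 bp and 5780 bp, with 82.1% and 90.1% identity, and the other 7 genes had no such alignment.

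Most of the genes shared a CpG-rich start, a property that the choice of genes did not use. CpG-rich here means that, from 500 bp before to 500 bp after the start, GC made up 50% or more of the bases and CpG occurred at 0.6 or more of its expected frequency. This held for 9 of the 10 genes, with Sox10 as the exception, and for 44.4% of all protein-coding genes. Of these 9, 8 had a site of at least 2 kb at a TSS, whereas 25.5% of all protein-coding genes with a CpG-rich start had any site there and 14.3% had one of at least 2 kb. Over 1 kb on either side, the ratio was 0.817 for Sox2, 0.770 for Sox7 and 0.756 for Sox9. It was lowest for Sox10, at 0.305, and the median over all protein-coding genes was 0.474. Sox9 and Sox10 were therefore the opposite of each other, the former with a CpG-rich start and no site, the latter with a CpG-poor start under the widest site of all.

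The surroundings were also divided into tiles of 500 bp, judged CpG-rich by the same limits. Of 72 CpG-rich tiles around the 10 genes, 58 were touched by a site (80.6%), against 766 of 2021 other tiles (37.9%). All CpG-rich tiles were touched around 6 genes, namely those of group B and Sox7 and Sox17. Around Sox1 this was 14 of 14 tiles, around Sox18 3 of 8, and around Sox9 1 of 6. Sequence inside sites held more CpG per kb than sequence outside them for 9 of the 10 genes, for example 26.8 against 6.57 around Sox17 and 23.3 against 8.93 around Sox1. Around Sox10 the order was reversed, with 15.3 inside and 18.4 outside. Neighbouring tiles share sites, so these shares describe the regions and were not tested.

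**Figure D4:**
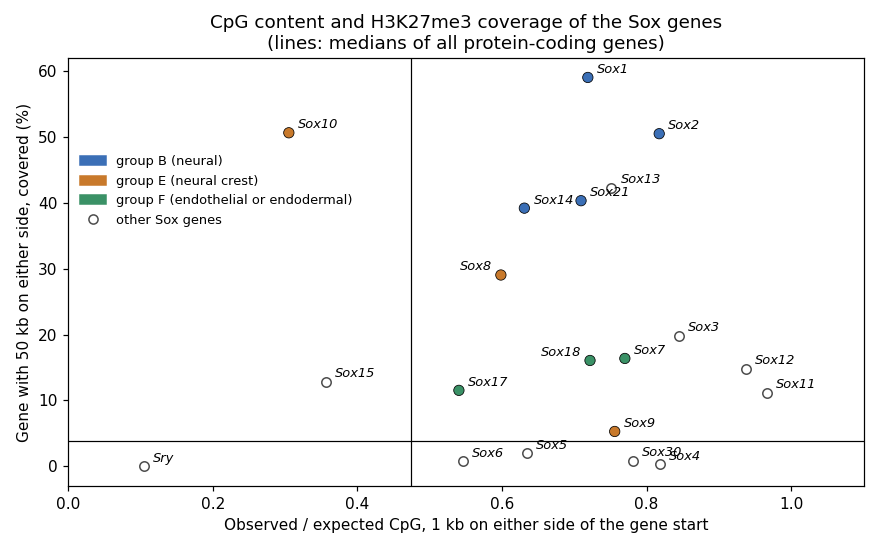
Ratio of observed to expected CpG within 1 kb of the gene start (horizontal) against the share of the gene and 50 kb on either side covered by H3K27me3 sites (vertical, percent), for the 10 genes (coloured by group) and 10 other Sox genes (open circles), with lines at the medians of all protein-coding genes. Sox10 combines a ratio of 0.305 with 50.6% covered, and Sox9 a ratio of 0.756 with 5.30%.

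Most of the coverage was not shared with protein-coding neighbours. No other protein-coding gene overlapped the 50 kb surroundings of Sox1, Sox2, Sox14, Sox9 and Sox17. Around the other 5 there were 14, of which 12 had their start inside, and 6 of the 12 had a site at a TSS, of at least 2 kb in 2 cases. Over all protein-coding genes these shares were 31.5% and 16.1%. These 2 were Rp1l1, a photoreceptor gene downstream of Sox7, with a site of 5134 bp, and Oprl1, the nociceptin receptor gene upstream of Sox18, with one of 3715 bp. The site of 5134 bp lay beyond the 50 kb surroundings of Sox7. Lmf1, which lies 8399 bp upstream of Sox8, had no site at any of its 7 start sites and 0% of its body covered. Polr2f, a subunit gene of RNA polymerase 3134 bp downstream of Sox10, was touched by 1 site of 642 bp, and 5.96% of its body was covered. Tcea2, the nearest neighbour of Sox18 at 8670 bp, had none at its TSSs. The covered stretches of Sox8, Sox10 and Sox18 thus ended before these nearest neighbours. For Sox7 and Sox21 the nearest neighbours, 4930578I06Rik and Gm9376, had sites at a TSS of at most 881 bp and 223 bp.

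Sox1 and Sox2 lie inside long noncoding transcripts that run on the same strand. Sox1ot was covered over 79.8% of its body and its start window was fully covered by the 13316 bp site. Sox2ot, which begins far upstream of Sox2 and has 18 start sites, was covered over 26.3% of its body and 67.5% of its start windows. Sites over the bodies of Sox1 and Sox2 overlap both the gene and the longer transcript, and they cannot be assigned to one of them. The 13316 bp site overlaps Sox1ot but not Sox1, since it ends 1681 bp before the start of Sox1.

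The remaining 10 Sox genes had a site at a TSS in 5 of 10 cases and one of at least 2 kb in 3 of 10. Of all protein-coding genes, 31.5% had the former and 16.1% the latter. The 3 were Sox3, the X-linked relative of Sox1 and Sox2, with a site of 10570 bp that covered all of the gene, and Sox5 and Sox6, partners of Sox9 in cartilage, with 2734 and 3043 bp. Sox3 had 19.8% of its surroundings covered, less than any autosomal gene of group B. The median over the 10 was 6.56%, from 0% at Sry to 42.3% at Sox13. At Sox4, Sox11 and Sox12, the group C genes used by many mesenchymal and progenitor cells, which were singled out after their values were seen, no site lay at a start, although all had CpG-rich starts. In this they resembled Sox9.

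Other genes of the same lineages were set beside the Sox groups. For comparison, 31.5% of all protein-coding genes had a site at a TSS and 16.1% one of at least 2 kb. Of 16 neural lineage genes, 14 had a site at a TSS and 13 one of at least 2 kb, and the median covered share of the surroundings was 47.0%, beside 45.4% for the neural Sox genes. Olig2, an oligodendrocyte and motor neuron regulator, had the highest share, at 84.6%. Of 16 neural crest genes, 13 had a site and 11 a wide one, with a median of 19.1% and values from 0.193% at Snai2 to 70.2% at Pax7. This list ranged as widely as group E did. Snai2 had no site at a TSS, and it was not the only gene of this list without one.

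Of 16 endothelial genes, 12 had a site and 9 one of at least 2 kb, with a median share of 12.04%, beside 16.1% for group F. The range was from 0% at Emcn to 50.6% at Tal1. Of 16 endodermal genes, 11 had a site and 9 a wide one, with a median of 30.8% and values from 0% at Hhex to 68.7% at Foxa2. The neural Sox genes and neural lineage list had the highest medians of the Sox groups and of the lists, respectively. Among 16 fibroblast genes 5 had a site at a TSS and none a wide one, and the median share was 0.665%, with 0% at Col1a2 and 22.3% at Fbln2. The 5 genes were close to the share of all protein-coding genes with a site (31.5%). A CpG-rich start was found in 3 of the 16 fibroblast genes, against 13 of the 16 neural lineage genes. Among 16 genes used in all cells 3 had a site and none a wide one, with a median of 2.52% and values from 0.192% at Rplp0 to 16.0% at Hnrnpa1. No wide site lay at the starts of the fibroblast markers in cells labelled as fibroblasts, and 16.1% of all protein-coding genes had one.

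**Figure D5:**
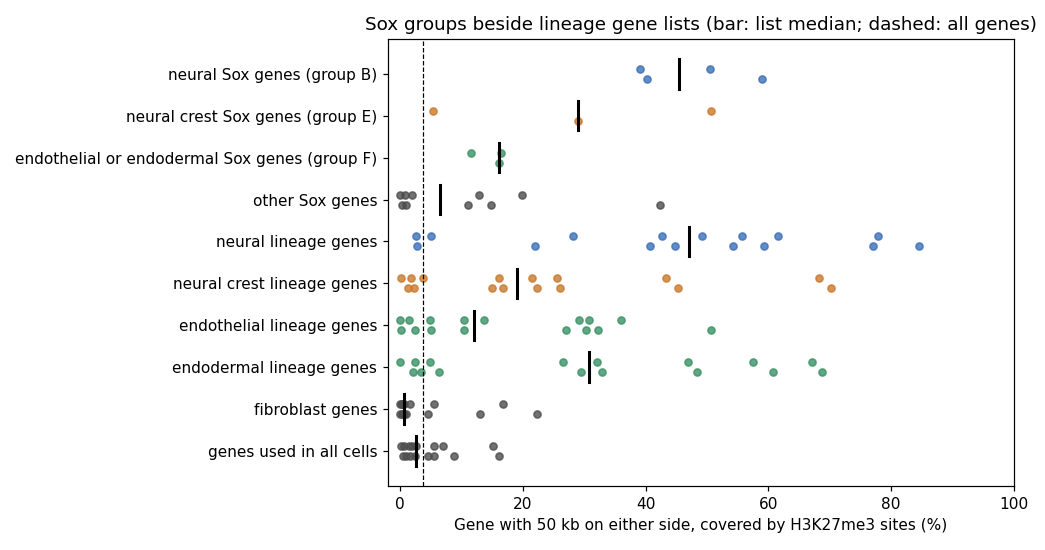
Share of each gene with 50 kb on either side covered by H3K27me3 sites (percent, points) for the 3 Sox groups, 10 other Sox genes and 6 lists of 16 genes, with the list medians as bars and the median of all protein-coding genes as a dashed line. The medians are 45.4% for the neural Sox genes and 47.0% for neural lineage genes, 16.1% for group F and 12.04% for endothelial genes, and 0.665% for fibroblast genes.

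The order of the groups depended on the size of the surroundings. With 10 kb on either side the medians were 84.3% in group B, 63.2% in group E and 39.8% in group F. With 100 kb they were 32.3%, 38.7% and 15.3%, so that group E stood above group B, and the lowest neural gene exceeded the highest of group F by 2.30 percentage points. The 4 chosen genes of group B remained apart from group F at each of these distances.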

How the data were processed

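The authors used Trim Galore for trimming and BWA for alignment to mm10 (GRCm38.p6), and then filtered alignments with samtools, merged replicates with Picard, scaled to the lowest coverage and called broad peaks with MACS. Versions, the peak threshold and the rule for combining peaks are not given in the sources used here. The deposited file used here lists positions (chromosome, start, end) with no other unit, and 0 columns hold values per library. Starts were read as counted from 0, since the smallest width was then 200 bp, and are printed from 1. No site overlapped another or passed a chromosome end.

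Overlaps with GENCODE M21 genes were computed with Python 3.11.15 and pandas 2.3.3, and sequence was read with pysam 0.24.0. Patch sequences were aligned with minimap2 2.31-r1302, keeping alignments over at least 1000 bp. A covered share is the percentage of bases under a site. The functions matched a count base by base in 200 of 200 simulated gene windows. Alternatives were joining sites less than 1 kb or 5 kb apart, keeping sites of at least 500 bp or 1 kb, start windows of 500 bp or 2 kb on either side or only the gene's own start, surroundings of 10 kb or 100 kb, and leaving the gene out. All 10 members are named by rule, other lists by counts with their extremes or genes with sites of at least 2 kb, except Sox4, Sox11 and Sox12, named after their values were seen, and 1 gene that is not reported here. The members and lists were chosen with earlier results of these data known, and joining at less than 500 bp or 1 kb around the start was added after seeing the data.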

Additional observations from a re-analysis of the deposited data

Results flagged for a closer look

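The list held 105 sites on 23 sequences outside the assembled chromosomes. They stand outside the comparisons above because those sequences were not used for the gene windows.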

How the results depend on the processing

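The count of 9 genes with a site at a TSS, and of 9 with one of at least 2 kb, was the same under each of the 7 alternatives tried for it. These alternatives could hardly change it. The sites over the 9 gene starts were 3625 bp or wider, so width limits, joining and narrower windows could not remove them. The site nearest the start of Sox9 began 2768 bp after it, outside even the window of 2 kb. With sites less than 5 kb apart joined, the median covered share of the surroundings rose to 78.2% in group B and 26.3% in group F. With only sites of at least 1 kb, the median of group F was 8.52%, and the lowest gene of group B exceeded the highest of group F by 13.5 percentage points. With 10 kb on either side the medians were 84.3%, 63.2% and 39.8% in groups B, E and F, and with 100 kb the gap between groups B and F was 2.30 points. It kept its sign under each of the 7 alternatives tried for it, from 2.30 to 29.6 points. Of 233 further values for single genes or groups, 155 stayed within 1.5 times their main value, 31 rose and 47 fell. Of the 47 that fell, 35 were numbers of sites, which joining and width limits lower by construction.

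No paired analysis was possible because values per library were not analysed here. Nor were replicates left out in turn, and the depth behind the sites is unknown.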
